A study of Arabidopsis thaliana with 12 samples.

Results

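Roots of wild-type Arabidopsis thaliana seedlings (Col) that had received the ipdc strain of the soil bacterium Azospirillum brasilense were compared with roots that had received saline, 7 d after treatment. The libraries were chosen by their column names in the deposited gene count table: the 2 columns naming ipdc at 7 d and the 2 naming NaCl at 7 d, which make 4 of the 12 libraries of the series. The series asked which effects of the bacterium on the root system depend on auxin. Its other groups are the wild-type strain, strain 39 (called Az39 here), at 7 d, and all 3 treatments at 24 h.

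The ipdc roots came from seedlings treated 4 d after planting with 2 uL of ipdc suspension at an OD595 of 1. The Az39 roots had 2 uL of Az39 suspension at the same density, and the saline roots had 2 uL of the 0.9% saline in which both strains were suspended. All groups share the plant genotype, which carries no transgene, and the sterile sucrose-containing agar with 16 h of light and 8 h of dark per day. Each library is a pool of at least 50 whole root systems, and each group has 2 biological replicates. The mutant is represented by 1 strain, and no complemented strain is among these samples. Its effect can be read in 2 ways here, against saline and against Az39, and the saline libraries are shared by every comparison with saline.

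The gene ipdC encodes indole-3-pyruvate decarboxylase, an enzyme of the main route by which Azospirillum makes the auxin indole-3-acetic acid. Plant cells read auxin through TIR1/AFB receptors and degradable Aux/IAA repressors, and dampen it through GH3 enzymes that conjugate it to amino acids. Roots also sense microbes through pattern receptors at the cell surface, release Pep peptides that amplify this signal through the PEPR receptors, and use jasmonate, which is perceived by COI1 together with the JAZ repressors, to set defence against growth.

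Only 3 genes passed the threshold between ipdc and saline roots at 7 d, and their sequences just upstream of the annotated gene start are given first because they are the results of the comparison that carry a call. Each run is 250 bases, 5′ to 3′ on the strand of the gene, ends 1 base before the annotated start, and was read from the RefSeq genome TAIR10.1. No other annotated gene lies within these windows. The motifs searched on both strands were the G-box CACGTG, the W-box core TTGAC, the auxin element TGTCTC and the as-1 core TGACG, of which TTGAC and TGACG can overlap, and capitals mark each match.
PROPEP4, chr5:3122481-3122730, + strand: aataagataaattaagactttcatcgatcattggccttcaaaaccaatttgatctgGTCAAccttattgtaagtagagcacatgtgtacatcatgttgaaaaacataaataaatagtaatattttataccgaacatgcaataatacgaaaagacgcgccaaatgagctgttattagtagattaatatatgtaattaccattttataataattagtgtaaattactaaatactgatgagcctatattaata
ALMT1, chr1:2658352-2658601, + strand: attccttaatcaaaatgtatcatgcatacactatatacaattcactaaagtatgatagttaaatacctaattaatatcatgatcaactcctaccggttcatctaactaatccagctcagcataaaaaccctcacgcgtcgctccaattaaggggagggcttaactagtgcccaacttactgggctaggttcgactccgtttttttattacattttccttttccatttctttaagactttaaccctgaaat
AT2G16005, chr2:6960217-6960466, - strand: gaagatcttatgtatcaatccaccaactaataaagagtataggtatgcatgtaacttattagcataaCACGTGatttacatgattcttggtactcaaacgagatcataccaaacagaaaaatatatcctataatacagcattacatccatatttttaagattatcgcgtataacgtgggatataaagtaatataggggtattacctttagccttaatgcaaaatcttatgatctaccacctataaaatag
The PROPEP4 window holds 1 W-box core, read on the reverse strand as GTCAA, a motif present in 44.9% of the 27443 windows of the same length. The AT2G16005 window holds 1 G-box, a motif present in 6.49% of windows. The ALMT1 window holds none of the 4 motifs, which says only that these letters are not in it.

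The 12 libraries held between 9665704 and 21541793 counts, with 15424136 and 14141640 in ipdc and 18773891 and 19330423 in saline roots at 7 d. Of 21200 genes in the table, 18867 passed the filter on low counts. All 16 genes of a root cell type marker list were detected, and they took 0.736% and 0.745% of counts in ipdc, 0.559% and 0.904% in Az39 and 1.09% and 1.21% in saline roots at 7 d. This share is a sum in which abundant genes weigh most. The median log2 fold change of the 16 in ipdc over saline roots was -0.14, with 7 above and 9 below 0. Photosynthesis transcripts took 0.0776% and 0.26% of counts in ipdc against 0.0919% and 0.117% in saline roots, and seed storage transcripts took 0.0141% and 0.0142% against 0.0845% and 0.00363%. None of the 21 photosynthesis and none of the 12 seed storage genes passed the threshold at 7 d. The part of these transcripts in the results below was not tested.

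Between ipdc and saline roots at 7 d, edgeR's quasi-likelihood test called 3 genes at an adjusted p under 0.05, which is 0.0159% of the genes tested. PROPEP4 and ALMT1 were higher in ipdc roots (0.0106% of genes) and AT2G16005 was lower (0.0053%). At an unadjusted p under 0.05 there were 1024 genes higher (5.43%) and 956 lower (5.07%) in ipdc roots. DESeq2 called 175 genes higher (0.928%) and 204 lower (1.08%), and edgeR's likelihood ratio test, an alternative chosen after seeing the data, called 300 in all (1.59%). The 2 ipdc and the 2 saline libraries did not overlap in 5401 genes that were higher (28.6%) and 4469 that were lower (23.7%), and the median log2 fold change over all genes was 0.04. Against the same saline libraries, edgeR called 696 genes (3.69%) in Az39 roots.

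PROPEP4 (AT5G09980) encodes the precursor of elicitor peptide 4, one of the Pep peptides. Its TMM-normalised level was 35.3 and 38.6 CPM (counts scaled to a common library size) in ipdc roots, 55.6 and 65.9 CPM in Az39 roots, and 10.8 and 8.95 CPM in saline roots. Every bacterial library stood above both saline libraries, and the Az39 libraries stood highest. PROPEP4 rose in ipdc roots by 1.90 ± 0.18 on the log2 scale (SE, n = 2 each, edgeR adjusted p = 0.0229). Its log2 fold change of Az39 over the shared saline libraries was 2.62 (edgeR adjusted p = 0.00055).

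ALMT1 (AT1G08430) encodes the aluminium-activated transporter that releases malate from root tips. It had 105 and 140.5 CPM in ipdc roots, 60.9 and 90.2 CPM in Az39 roots, and 26.0 and 15.8 CPM in saline roots. The groups did not overlap, and the ipdc libraries stood highest. ALMT1 rose in ipdc roots by 2.55 ± 0.29 on the log2 scale (SE, n = 2 each, edgeR adjusted p = 0.0385). STOP1, the transcription factor known to be required for ALMT1 expression, had 169.5 and 139 CPM in ipdc and 169 and 134 CPM in saline roots, with a log2 fold change of 0.03 ± 0.22, and its libraries interleaved. ALMT1 was the only called gene among the 688 tested members of the 44 gene lists described here.

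AT2G16005 is annotated as an MD-2-related lipid recognition domain protein. It had 47.3 and 50.8 CPM in ipdc roots, 81.6 and 104 CPM in Az39 roots, and 239 and 189 CPM in saline roots. The groups stood apart in the order ipdc, Az39, saline. AT2G16005 fell in ipdc roots, with a log2 fold change of -2.13 ± 0.23 (SE, n = 2 each, edgeR adjusted p = 0.0385). For Az39 over the shared saline libraries the log2 fold changes were 1.85 for ALMT1 (edgeR adjusted p = 0.0143) and -1.21 for AT2G16005 (edgeR adjusted p = 0.0261).

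All 3 calls were lost when either ipdc library or saline replicate 2 was left out, and without saline replicate 1 PROPEP4 and ALMT1 kept an edgeR adjusted p of 0.035. Their fold changes moved less: without 1 library the log2 fold change lay between 1.77 and 2.04 for PROPEP4, between 2.24 and 2.95 for ALMT1 and between -2.29 and -1.95 for AT2G16005. With the ipdc and saline libraries fitted alone, or the 6 libraries at 7 d alone, edgeR called 0 genes, where DESeq2 called 379 (2.01%) over all libraries and 1980 genes (10.5%) had an unadjusted p under 0.05.

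**Figure D1:**
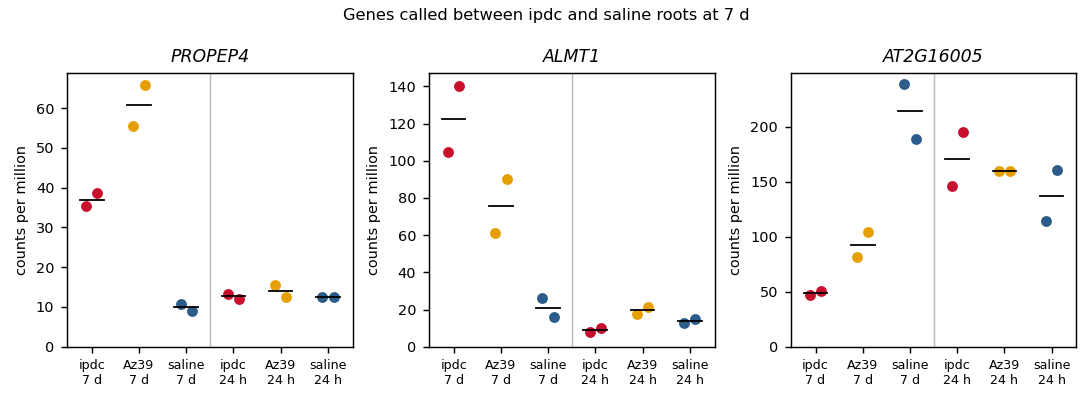
Levels of the 3 genes called between ipdc and saline roots at 7 d, in CPM per library (points, with a bar at the mean of the 2 libraries), for ipdc, Az39 and saline roots at 7 d and at 24 h. At 7 d the ipdc libraries stand above both saline libraries for PROPEP4 and ALMT1 and below them for AT2G16005.

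Genes just outside the threshold were FLA13, a fasciclin-like arabinogalactan protein of the cell wall, and GH3.2, an auxin-conjugating enzyme listed as BRU6. FLA13 had 2.26 and 3.01 CPM in ipdc, 4.25 and 4.93 CPM in Az39 and 12.3 and 14.4 CPM in saline roots. Its log2 fold change was -2.34 ± 0.29 (edgeR adjusted p = 0.0527). GH3.2 had 80.4 and 52.8 CPM in ipdc, 23.65 and 30.5 CPM in Az39 and 17.1 and 18.8 CPM in saline roots. Here both ipdc libraries stood above the Az39 and the saline libraries. The log2 fold change of GH3.2 was 1.89 ± 0.24 over saline (edgeR adjusted p = 0.0605) and 1.30 ± 0.24 over Az39 (edgeR adjusted p = 0.123).

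Gene lists were described by their counts and medians, and no gene named from here to the comparison of the strains passed the threshold against saline unless it is said to have been called. At an unadjusted p under 0.05, 5.43% of all genes were higher and 5.07% lower in ipdc roots, the shares to set beside each list. For DESeq2 calls those shares were 0.928% higher and 1.08% lower. In pattern-triggered immunity, 13 of 33 tested genes had an unadjusted p under 0.05 and were higher in ipdc roots and 1 was lower, DESeq2 called 8, all higher, and the median log2 fold change was 0.72. Precursors of other Pep peptides, PROPEP1, PROPEP2 and PROPEP3, were part of this list, and PROPEP1 and PROPEP3 are described here. PROPEP1 had 55.7 and 48.4 CPM in ipdc, 30.0 and 56.0 CPM in Az39 and 19.2 and 11.1 CPM in saline roots, with a log2 fold change over saline of 1.78 ± 0.36. PROPEP3 had 49.8 and 38.7 CPM in ipdc, 13.9 and 27.5 CPM in Az39 and 12.9 and 5.81 CPM in saline roots, with a log2 fold change over saline of 2.25 ± 0.51. PROPEP3 thus stood higher in both ipdc libraries than in any Az39 or saline library.

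PEPR1, the receptor of Pep peptides, had 266 and 176 CPM in ipdc, 290.0 and 258 CPM in Az39 and 99.7 and 40.9 CPM in saline roots, a log2 fold change over saline of 1.66 ± 0.37. RBOHD, the oxidase that makes the oxidative burst of immunity, stood at 403 and 219.8 CPM in ipdc against 155 and 62.5 CPM in saline roots, and the flagellin receptor gene FLS2 had a log2 fold change of 2.57. Their ipdc and saline libraries did not overlap. FRK1, a widely used flagellin response gene, stood at 2.07 and 2.26 CPM in ipdc and 2.22 and 2.07 CPM in saline roots, and WRKY29, a transcription factor of the same response, at 14.1 and 8.08 against 23.56 and 24.9 CPM, so the members did not all lie on one side.

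The saline replicates differed across this list. Saline replicate 1 exceeded saline replicate 2 in 29 of 33 immunity genes, against 49.3% of all genes, and ipdc replicate 1 exceeded ipdc replicate 2 in 26 of them, against 50.9% of all genes. The list's median was 1.64 without saline replicate 1 and 0.26 without saline replicate 2. What these replicate differences add to the group difference was not tested.

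Jasmonate output, the JAZ repressors and jasmonate synthesis had the highest medians of the 44 lists. In jasmonate synthesis 7 of 14 tested genes were higher in ipdc roots at an unadjusted p under 0.05 and 0 lower, with a median log2 fold change of 1.7. Of the JAZ repressors, 8 of 12 were higher and 0 lower, with a median of 1.77, and DESeq2 called 7 of them and 4 of the synthesis genes, all higher. Among 8 tested genes of jasmonate output 4 were higher and 0 lower. Their median of 2.56 becomes 2.01 when CLH1 and CORI3, which had no count in either saline library, are set at a lower bound against 3 counts per saline library. On that bound the mean of the ipdc libraries was 4.24-fold higher for CORI3 and 3.98-fold higher for CLH1. These means rest on few counts in the ipdc libraries, 5 and 14 for CORI3 and 7 and 11 for CLH1. The bound takes no account of the spread between them.

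OPR3, the reductase of the peroxisomal step of jasmonate synthesis, had 228 and 133 CPM in ipdc, 305 and 455 CPM in Az39 and 63.0 and 29.3 CPM in saline roots. The groups stood apart with Az39 highest and saline lowest, and the log2 fold change of ipdc over saline was 1.97 ± 0.39 (DESeq2 adjusted p = 0.000125). AOC1, an allene oxide cyclase, had 2.00 and 2.81 CPM in ipdc, 14.6 and 12.3 CPM in Az39 and 0.258 and 0.246 CPM in saline roots. LOX4, a lipoxygenase of the first step, had 90.3 and 55.4 CPM in ipdc, 103 and 128 CPM in Az39 and 15.3 and 0.689 CPM in saline roots. The saline replicates of LOX4 were far apart from each other, and its log2 fold change of 3.19 had an SE of 0.90.

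JAZ10, a repressor that is itself induced by jasmonate, had 65.3 and 36.0 CPM in ipdc, 193 and 326 CPM in Az39 and 6.97 and 1.92 CPM in saline roots. It stood between the saline and the Az39 libraries in both ipdc libraries, with a log2 fold change of 3.51 ± 0.58 over saline (edgeR adjusted p = 0.137, DESeq2 adjusted p = 2.2e-08). JAZ8, a repressor that resists jasmonate-driven degradation, had 64.7 and 46.7 CPM in ipdc, 41.5 and 135 CPM in Az39 and 6.77 and 1.13 CPM in saline roots. TIFY10B (JAZ2) had 519 and 316 CPM in ipdc, 584 and 792 CPM in Az39 and 122 and 43.5 CPM in saline roots, a log2 fold change over saline of 2.34 ± 0.43. JAZ1, another JAZ repressor, had 1095 and 876 CPM in ipdc, 872 and 1476 CPM in Az39 and 587 and 233 CPM in saline roots. The upstream window of TIFY10B is shown because it holds a G-box, the letters bound by MYC transcription factors of the jasmonate pathway, beside 1 auxin element and 1 as-1 core (capitals, in the order as-1 core, G-box, auxin element).
TIFY10B, chr1:28150447-28150696, - strand: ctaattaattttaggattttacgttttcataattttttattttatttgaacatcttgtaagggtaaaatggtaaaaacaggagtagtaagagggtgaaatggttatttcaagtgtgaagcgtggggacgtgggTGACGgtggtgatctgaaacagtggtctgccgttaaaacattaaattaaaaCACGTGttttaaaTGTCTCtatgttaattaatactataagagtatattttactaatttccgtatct
The G-box occurs in 6.49%, the auxin element in 10.9% and the as-1 core in 18.6% of windows. Windows of the other jasmonate genes are not described, so how many of them hold a G-box is not given. A match of letters is a description of the window and shows no binding.

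Jasmonate perception and turnover had lower medians than the other jasmonate lists, and single genes of turnover and output varied. Jasmonate perception had a median log2 fold change of 0.04 over 6 genes, with 1 higher and 1 lower at an unadjusted p under 0.05, and MYC2, the transcription factor that the JAZ proteins hold back, had 635 and 489.7 CPM in ipdc against 396 and 170.0 CPM in saline roots. Jasmonate turnover had a median of 0.90 over 6 genes, with 3 higher and 0 lower, among them ILL6, an amidohydrolase, at 19.8 and 12.7 CPM in ipdc, 43.1 and 66.2 CPM in Az39 and 7.80 and 4.38 CPM in saline roots. VSP2, a storage protein gene long used as a jasmonate marker in leaves, had a log2 fold change of -0.26 ± 0.28, and PDF1.2, a defensin gene, was below the count filter. TAT3, a tyrosine aminotransferase of the output list, had 16.3 and 5.89 CPM in ipdc, 83.6 and 113 CPM in Az39 and 2.27 and 0.344 CPM in saline roots.

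For Az39 over the same saline libraries the list medians were 1.89 for synthesis, 2.62 for the JAZ repressors, 2.02 for turnover and 3.74 for output. For ipdc over Az39 they were -0.50, -0.63, -1.27 and -0.70, with 2, 4, 3 and 4 genes lower at an unadjusted p under 0.05 and 0 higher, and 0 of these genes were called between the strains. Of all genes tested between the strains, 5.75% were lower and 3.49% higher at that unadjusted threshold. Saline replicate 1 exceeded saline replicate 2 in 11 of 14 synthesis genes and 11 of 12 JAZ genes, and ipdc replicate 1 exceeded ipdc replicate 2 in 11 of 12 JAZ genes. Without 1 library the median lay between 1.19 and 2.19 for synthesis and between 1.39 and 2.53 for the JAZ repressors. For jasmonate output it lay between 1.79 and 4.04, the higher value being the one without saline replicate 1.

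**Figure D2:**
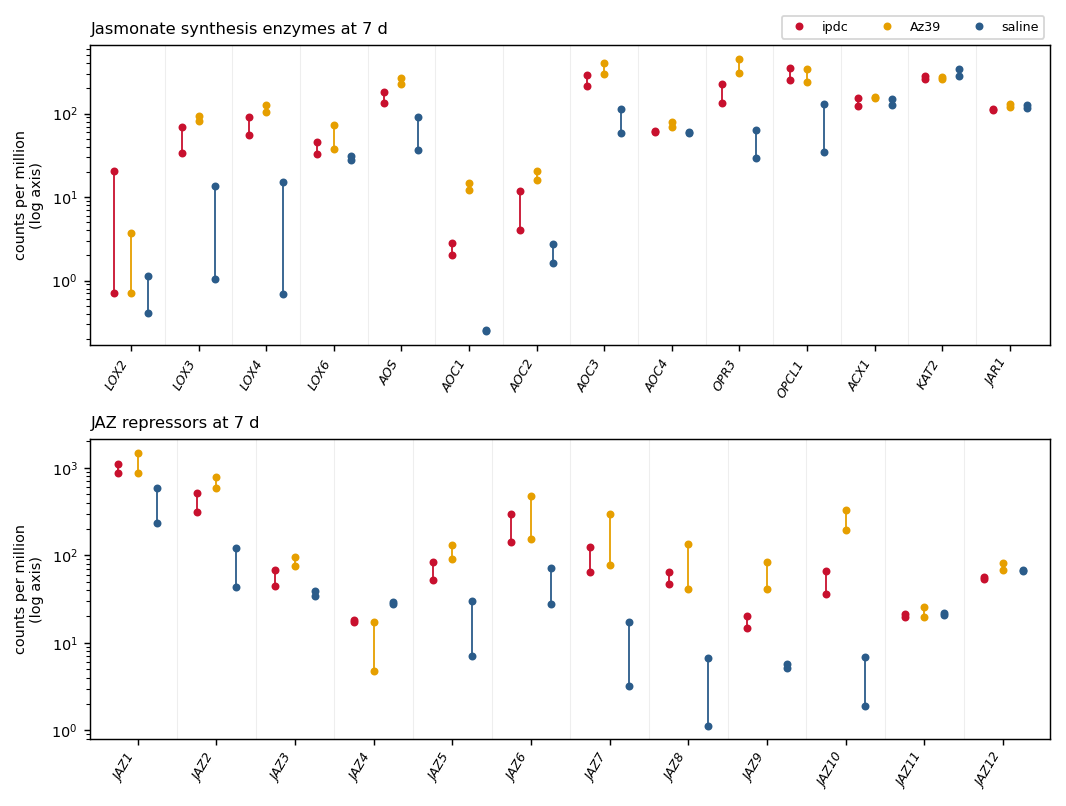
Levels of jasmonate genes at 7 d in CPM on a log axis, with the 2 libraries of each group joined by a line, for ipdc (red), Az39 (orange) and saline (blue) roots. For JAZ10 the ipdc libraries, at 65.3 and 36.0 CPM, lie between the Az39 libraries at 193 and 326 CPM and the saline libraries at 6.97 and 1.92 CPM.

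The salicylic acid list had a median log2 fold change of 0.79 over 21 tested genes, with 7 higher and 1 lower in ipdc roots at an unadjusted p under 0.05. WRKY38, a transcription factor induced by salicylic acid, had 36.5 and 16.6 CPM in ipdc, 49.0 and 82.9 CPM in Az39 and 3.87 and 1.33 CPM in saline roots. Its log2 fold change was 3.36 ± 0.57 over saline. The marker PR1 had 0 counts in 1 ipdc library and 1 count in the other and was not tested. The median of the list was 0.37 without ipdc replicate 1 and 0.48 without saline replicate 2. Stress-induced ERF factors had a median of 0.40 over 10 genes, with 2 higher and 0 lower, and saline replicate 1 exceeded saline replicate 2 in 10 of 10. Their median was 0.74 without saline replicate 1 and 0.15 without saline replicate 2.

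Auxin response genes had a median log2 fold change of -0.03 over 28 tested genes, with 2 higher and 3 lower in ipdc roots at an unadjusted p under 0.05. The early response gene IAA19 had 12.3 and 11.03 CPM in ipdc, 16.8 and 16.5 CPM in Az39 and 8.63 and 6.79 CPM in saline roots, with a log2 fold change over saline of 0.60 ± 0.21. IAA3, listed as SHY2, had 30.9 and 22.3 CPM in ipdc, 29.0 and 32.3 CPM in Az39 and 41.7 and 55.0 CPM in saline roots, a log2 fold change over saline of -0.86 ± 0.25. IAA5 was near the detection limit, at 0.0646 and 0.411 CPM in ipdc, 2.36 and 2.5 CPM in Az39 and 0.517 and 0.197 CPM in saline roots. The auxin response list therefore held members on both sides of 0, between -0.86 and 0.87.

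Auxin conjugation had a median of 0.54 over 7 genes, with GH3.1, GH3.2 and GH3.3 higher at an unadjusted p under 0.05 and 0 lower. GH3.3 had 21.3 and 12.5 CPM in ipdc, 19.6 and 31.3 CPM in Az39 and 9.04 and 4.58 CPM in saline roots. The median was 1.33 without saline replicate 1 and 0.17 without saline replicate 2. Of the plant's own auxin synthesis genes, YUC3, a flavin monooxygenase of the final step, stood at 13.8 and 14.0 CPM in ipdc against 6.35 and 7.18 CPM in saline roots, and its relative YUC6 at 6.52 and 8.29 against 13.9 and 19.2 CPM. TAA1, the aminotransferase of the step before, had a log2 fold change of 0.53 ± 0.29. The uptake carrier gene AUX1 stood at 59.7 and 56.5 CPM in ipdc, 77.2 and 87.1 CPM in Az39 and 93.5 and 106 CPM in saline roots. LBD16, a factor of lateral root founding, had a log2 fold change of -0.22 ± 0.38, and the 13 lateral root genes had a median of -0.02 with 0 higher and 1 lower.

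Tryptophan, the precursor of auxin and of indole defence compounds, is made through anthranilate synthase. Its subunit gene ASB1 had 103 and 66.2 CPM in ipdc, 129.6 and 142 CPM in Az39 and 36.5 and 35.8 CPM in saline roots, and the groups stood apart. The log2 fold change over saline was 1.23 ± 0.22, in a list of 10 genes with 2 higher, 0 lower and a median of 0.30. IGMT2, a methyltransferase of indole glucosinolates, stood at 53.3 and 52.9 CPM in ipdc, 47.6 and 24.1 CPM in Az39 and 15.0 and 15.0 CPM in saline roots, a log2 fold change over saline of 1.82 ± 0.27. CYP79B3, which turns tryptophan into indole-3-acetaldoxime, stood on the other side at 192 and 152 CPM in ipdc against 330.1 and 363 CPM in saline roots. The 22 genes of indole glucosinolates and camalexin had 4 higher, 3 lower and a median of -0.01. CYP71A12, an enzyme of camalexin synthesis, stood at 62.1 and 46.1 CPM in ipdc against 80.1 and 51.1 CPM in saline roots, and these libraries overlapped between the groups.

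Xylem secondary wall genes lay lower in ipdc roots almost throughout. Of 18 tested genes 11 had an unadjusted p under 0.05 and were lower and 0 were higher. DESeq2 called 4, all lower, where it called 1.08% of all genes lower. With no overlap of libraries 16 were lower, against 23.7% of all genes, and 17 were below 0. The median log2 fold change was -0.73, and it lay between -0.81 and -0.66 without 1 library. For Az39 over the same saline libraries the median was -0.21, and for ipdc over Az39 it was -0.49 with 7 genes lower and 0 higher at an unadjusted p under 0.05. In that comparison of the strains 5.75% of all genes were lower and 3.49% higher. In bulk roots fewer xylem cells and less RNA per cell cannot be told apart.

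FLA11, a fasciclin-like protein of secondary walls, had 15 and 14.1 CPM in ipdc, 23.2 and 23.8 CPM in Az39 and 26.7 and 29.3 CPM in saline roots, a log2 fold change over saline of -0.93 ± 0.17 (edgeR adjusted p = 0.149, DESeq2 adjusted p = 0.00225). CESA4, a subunit of the secondary wall cellulose synthase, had 34.0 and 29.1 CPM in ipdc, 37.5 and 41.8 CPM in Az39 and 56.9 and 57.3 CPM in saline roots. LAC11, a laccase of lignification, had 5.42 and 5.28 CPM in ipdc, 9.08 and 7.86 CPM in Az39 and 11.7 and 10.97 CPM in saline roots. In all 3 the ipdc libraries were the lowest, and the Az39 libraries lay between them and saline. The proteases XCP1 and XCP2 of dying xylem cells had log2 fold changes over saline of -0.78 ± 0.24 and -0.82 ± 0.23. MYB46, a master regulator of secondary walls, was among the 2 members whose libraries overlapped, at 4.13 and 2.95 CPM in ipdc against 3.62 and 3.64 CPM in saline roots.

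Lists of nitrogen, phosphate and water transport held more members lower than higher in ipdc roots at an unadjusted p under 0.05. In the nitrogen list 9 of 20 tested genes were lower and 1 higher, and the median log2 fold change was -0.19, or -0.41 without ipdc replicate 1. The ammonium transporter gene AMT1;1 had 64.7 and 51.4 CPM in ipdc, 44.9 and 56.0 CPM in Az39 and 156 and 122 CPM in saline roots, a log2 fold change over saline of -1.26 ± 0.28. The nitrate transporter gene NRT2:1 had 1.23 and 2.12 CPM in ipdc, 1.59 and 4.81 CPM in Az39 and 12.04 and 7.97 CPM in saline roots. Both bacterial groups stood below saline for these genes. NIA1, a nitrate reductase, stood on the other side, at 271 and 294 CPM in ipdc, 151 and 316 CPM in Az39 and 99.4 and 49.1 CPM in saline roots.

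**Figure D3:**
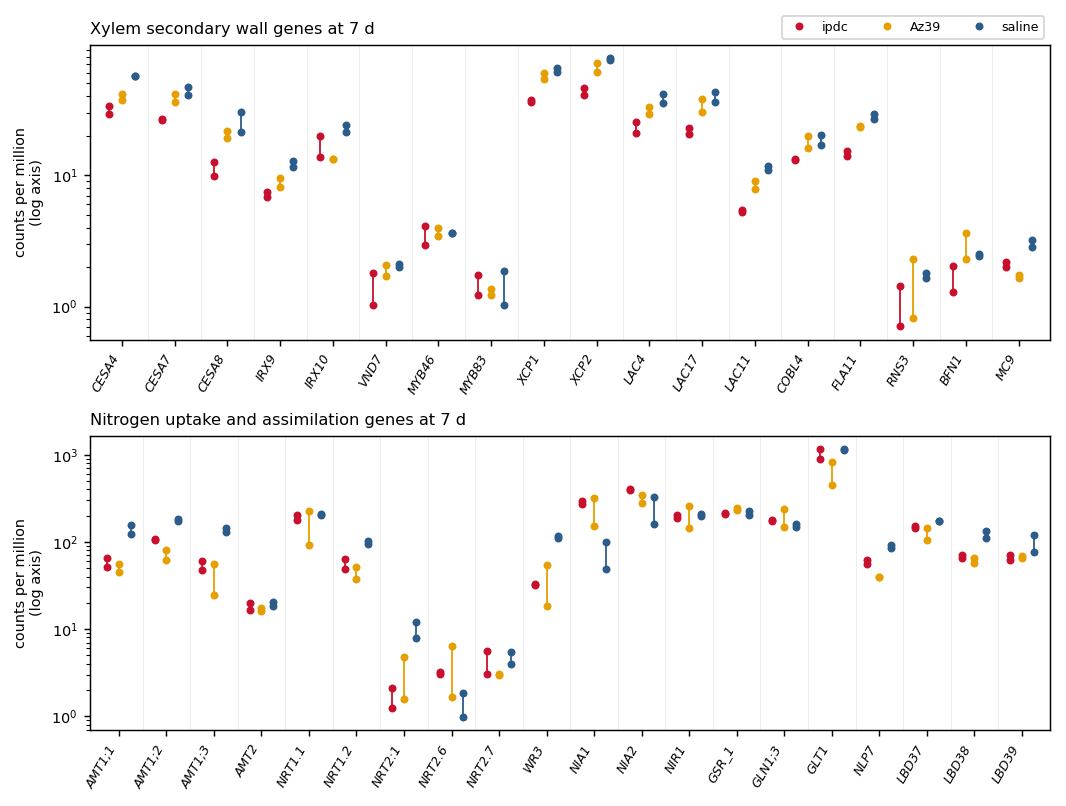
Levels of the 18 xylem secondary wall genes (above) and the 20 nitrogen genes (below) at 7 d, in CPM on a log axis, with the 2 libraries of each group joined by a line, for ipdc (red), Az39 (orange) and saline (blue) roots. The ipdc libraries lie below both saline libraries in 16 of the 18 xylem genes, against 23.7% of all genes. NIA1 stands out among the nitrogen genes as higher in ipdc roots.

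In the phosphate list 7 of 24 genes were lower and 0 higher, with a median of -0.22, or -0.09 without saline replicate 1 and -0.34 without saline replicate 2, and the transporters PHT1;1, PHT1;2 and PHT1;4 had log2 fold changes of -1.12, -2.30 and -1.26. PHT1;1 stood at 194 and 149.5 CPM in ipdc, 67.6 and 187 CPM in Az39 and 374 and 373 CPM in saline roots. PHT1;1 and PHT1;2 are close paralogs, and how reads were split between them is not given in the sources used here. Of the aquaporins 8 of 22 were lower and 1 higher, with a median of -0.54, and the vacuolar channel TIP2;2 had 282 and 250.1 CPM in ipdc, 215 and 329 CPM in Az39 and 635 and 631 CPM in saline roots. The median of the aquaporins for Az39 over the same saline libraries was -0.55. In the iron list 3 of 24 were lower and 1 higher, and FIT, the regulator of iron uptake listed as FRU, stood at 20.8 and 19.5 CPM in ipdc, 13.0 and 16.1 CPM in Az39 and 36.3 and 42.0 CPM in saline roots. The iron transporter gene IRT1 was unequal between the ipdc replicates, at 21.9 and 54.7 CPM, against 60.7 and 69.3 CPM in saline roots.

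The cytokinin list had 8 of 28 genes lower and 0 higher, with a median log2 fold change of -0.38, or -0.61 without saline replicate 1. CYP735A2, the hydroxylase that makes trans-zeatin forms, stood at 20.5 and 25.7 CPM in ipdc, 17.2 and 21.7 CPM in Az39 and 42.1 and 67.0 CPM in saline roots. ARR8, a type-A response regulator listed as RR3, stood at 41.2 and 53.3 CPM in ipdc, 33.5 and 45.0 CPM in Az39 and 80.9 and 100.1 CPM in saline roots. In both, the ipdc and Az39 libraries shared a range below saline.

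Wall loosening genes stood on both sides, with 4 of 14 higher and 4 lower. The xyloglucan endotransglucosylase gene XTH18 had 141 and 116 CPM in ipdc, 102 and 217 CPM in Az39 and 47.3 and 33.0 CPM in saline roots, while the expansin gene EXPA4 had 75.2 and 81.0 CPM in ipdc, 104 and 103 CPM in Az39 and 172 and 163 CPM in saline roots. In the clock list 4 of 19 were lower and 1 higher, and PRR5, an evening-phase repressor, stood at 27.2 and 32.9 CPM in ipdc against 62.5 and 68.98 CPM in saline roots. Sugar starvation genes had 6 of 16 lower and 1 higher with a median of -0.53. SIM, an inhibitor of the cell cycle in endoreduplicating cells, stood at 20.9 and 23.1 CPM in ipdc against 45.4 and 51.2 CPM in saline roots.

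The remaining lists held at most 4 genes in either direction at an unadjusted p under 0.05. Over all genes 5.43% were higher and 5.07% lower at that threshold, and counts such as 1 of 23 or 1 of 25 lie near those shares. Glutathione transferases had 4 of 21 higher and 1 lower, root hair genes 3 of 19 higher and 0 lower, hypoxia genes 3 of 12 higher and 0 lower, gibberellin and brassinosteroid genes 3 of 20 higher and 2 lower, auxin transport genes 2 of 17 in each direction, and the root cell type markers 2 of 16 higher and 1 lower. Cell cycle drivers had 1 of 23 higher and 0 lower, cell cycle inhibitors 1 of 10 in each direction, abscisic acid genes 1 of 25 higher and 2 lower, ethylene and flavonoid genes 2 of 18 lower each, auxin synthesis genes 1 of 10 higher and 2 lower, malate exudation genes 1 of 4 in each direction, triterpene genes 1 of 6 higher and ER body genes 1 of 10 lower. Aliphatic glucosinolates, sulfur, suberin, Casparian strip, heat shock, photosynthesis and seed storage had 0 in either direction. The photosynthesis median of 0.69 became -0.44 without ipdc replicate 2, and the seed storage median of -2.56 became 2.12 without saline replicate 1, so the sign of each rested on 1 library.

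**Figure D4:**
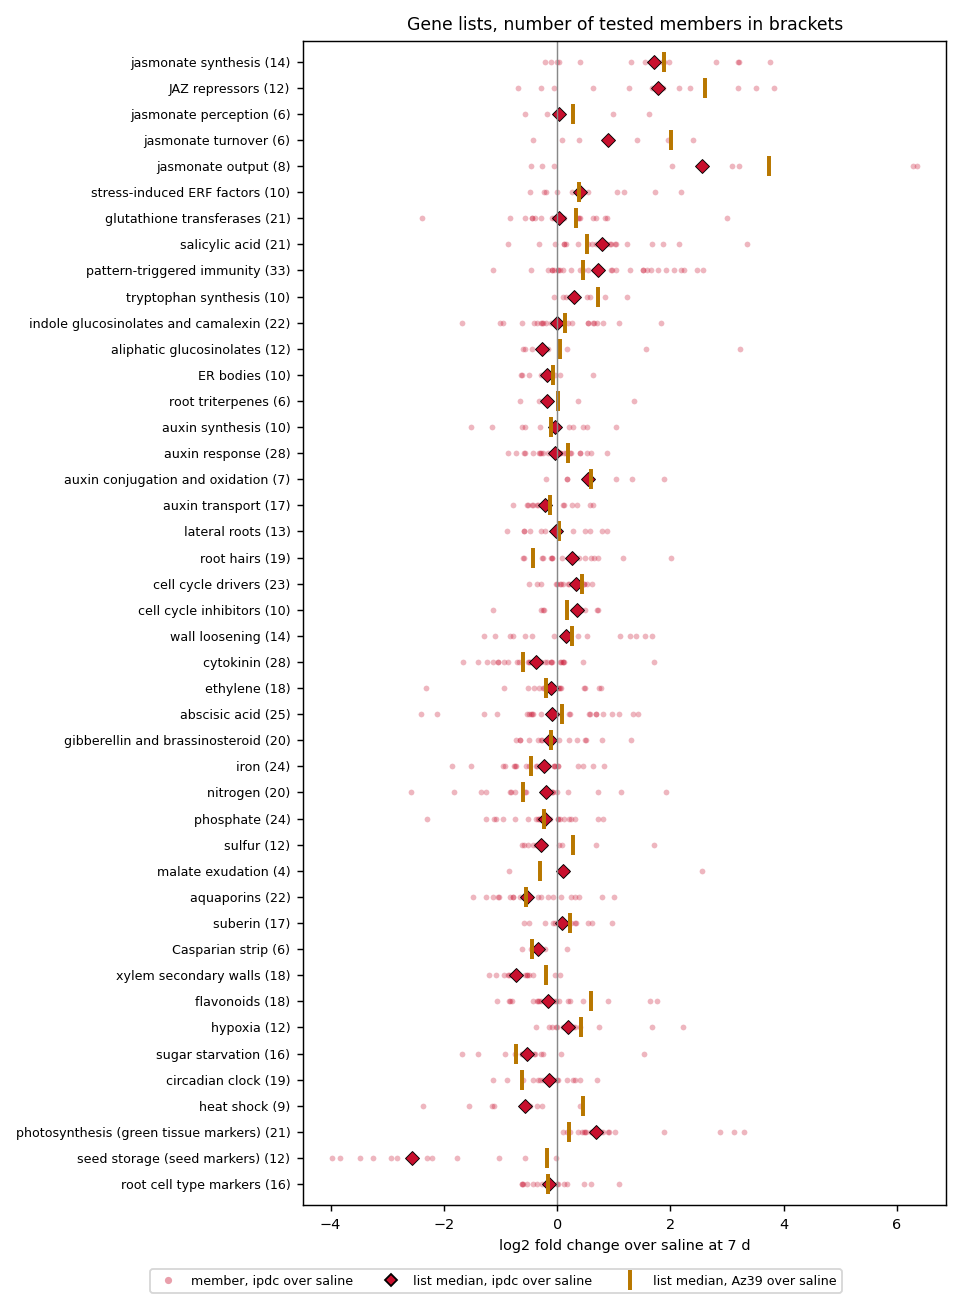
Log2 fold changes over saline at 7 d in the 44 gene lists, with the number of tested members in brackets: faint dots are members in ipdc over saline, the diamond is the list median in ipdc over saline and the tick is the list median in Az39 over the same saline libraries. Jasmonate output, the JAZ repressors and jasmonate synthesis have diamonds at 2.56, 1.77 and 1.7, xylem secondary walls at -0.73, and the rightmost dots are CORI3 and CLH1, which had no count in saline.

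Between ipdc and Az39 roots at 7 d, the comparison that sets the mutant against its parent strain, edgeR called 22 genes (0.117%), and 22 of 22 were lower in ipdc roots. The saline libraries are not compared here, but they enter the estimate of the spread that all 12 libraries share. DESeq2 called 30 genes higher (0.159%) and 154 lower (0.816%) in ipdc roots, the 22 among them. Of the 22, edgeR also called 10 with the 7 d libraries alone and 9 with the ipdc and Az39 libraries alone. At an unadjusted p under 0.05 there were 658 genes higher (3.49%) and 1085 lower (5.75%) in ipdc roots. PROPEP4, ALMT1 and AT2G16005 were not among the 22: their log2 fold changes over Az39 were -0.72, 0.70 and -0.92, with edgeR adjusted p of 0.281, 0.513 and 0.29.

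Auxin-inducible repressor genes were among them. In the auxin response list 6 of 28 tested genes were lower and 0 higher at an unadjusted p under 0.05, with a median of -0.22. In auxin conjugation 1 of 7 genes was higher and 0 were lower, with a median of 0.41, and 0 were called between the strains. Over all genes 5.75% were lower and 3.49% higher at that unadjusted threshold. IAA2 had 76.6 and 71.6 CPM in ipdc, 265 and 175 CPM in Az39 and 66.4 and 77.0 CPM in saline roots. The ipdc and saline libraries interleaved and both Az39 libraries stood above them. IAA2 fell in ipdc relative to Az39 roots, with a log2 fold change of -1.57 ± 0.20 (SE, n = 2 each, edgeR adjusted p = 0.0314), and stood at 0.05 ± 0.20 over saline. IAA18 had 26.2 and 21.4 CPM in ipdc, 60.03 and 53.4 CPM in Az39 and 23.4 and 22.4 CPM in saline roots, and it fell likewise with a log2 fold change of -1.25 ± 0.17 (edgeR adjusted p = 0.0327). Both calls were lost with the 7 d libraries alone, at an edgeR adjusted p of 0.11 for IAA2 and 0.0829 for IAA18. Leaving out 1 library gave an edgeR adjusted p of 0.0248 to 0.601 for IAA2, with the call kept only without Az39 replicate 2, and of 0.101 to 0.601 for IAA18. The window upstream of IAA2 is shown as the auxin-inducible gene of this comparison, and it holds none of the 4 motifs, the auxin element TGTCTC included.
IAA2, chr3:8182096-8182345, - strand: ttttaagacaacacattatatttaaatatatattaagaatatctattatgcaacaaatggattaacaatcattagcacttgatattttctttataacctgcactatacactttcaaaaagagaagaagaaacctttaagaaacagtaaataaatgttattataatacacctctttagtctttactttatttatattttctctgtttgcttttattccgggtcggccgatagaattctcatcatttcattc

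The largest differences among the 22 were in AT4G25433, GSTU5, ABR1 and GSTU6. GSTU6, a tau-class glutathione transferase of detoxification, had 24.1 and 17.9 CPM in ipdc, 178 and 133 CPM in Az39 and 13.0 and 14.0 CPM in saline roots, with a log2 fold change over Az39 of -2.89 ± 0.23 (edgeR adjusted p = 0.0043). Its tandem neighbour GSTU5 had 26.4 and 24.5 CPM in ipdc, 244 and 256 CPM in Az39 and 18.6 and 9.64 CPM in saline roots, with a log2 fold change over Az39 of -3.30 ± 0.29 (edgeR adjusted p = 0.0048). In both genes the ipdc libraries stood above both saline libraries and far below Az39. These paralogs resemble each other and GSTU6 overlaps AT2G29430 on the other strand, so the split of reads among them is uncertain. AT4G25433 had 0.646 and 0.754 CPM in ipdc, 12.03 and 12.6 CPM in Az39 and 0.31 and 0.492 CPM in saline roots. ABR1, an ERF-type repressor of abscisic acid responses, had 2.78 and 1.92 CPM in ipdc, 26.7 and 14.0 CPM in Az39 and 1.76 and 1.48 CPM in saline roots.

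MGD1, a galactolipid synthase of plastids, had 34.8 and 30.8 CPM in ipdc, 114 and 115 CPM in Az39 and 20.1 and 20.2 CPM in saline roots. MES5, a methylesterase-family gene, had 38.9 and 38.3 CPM in ipdc, 89.9 and 101 CPM in Az39 and 18.4 and 17.5 CPM in saline roots. In both genes the ipdc libraries stood between the other groups. The others of the 22 were AT1G62975, AT4G29930, AT2G19780, AT3G62010, SLAH2, HVA22D, AT5G54170, RSH2, SIP1, GH9B8, AT5G59480, IRX15-L, LTI30 and AT1G78830. In GH9B8, an endoglucanase-family gene, the ipdc libraries were the lowest, at 14.2 and 12.9 CPM in ipdc, 48.3 and 35.1 CPM in Az39 and 29.8 and 28.5 CPM in saline roots.

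Flavonoid genes had 10 of 18 lower and 0 higher in ipdc relative to Az39 roots at an unadjusted p under 0.05, with a median of -0.84, and 5 of 19 root hair genes were higher and 0 lower, with a median of 0.59. Over all genes 5.75% were lower and 3.49% higher at that threshold. TT4, the chalcone synthase of flavonoid synthesis, had 114 and 87.3 CPM in ipdc, 135 and 203 CPM in Az39 and 164 and 193 CPM in saline roots. RHS13, a root hair specific gene, had 31.2 and 23.3 CPM in ipdc, 8.55 and 14.2 CPM in Az39 and 16.7 and 16.3 CPM in saline roots. None of these list members was called between the strains. RSH2, annotated as root hair specific 2 and not in the root hair list, was among the 22 and stood on the other side, at 11.6 and 10.3 CPM in ipdc, 32.3 and 35.9 CPM in Az39 and 5.42 and 4.43 CPM in saline roots.

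**Figure D5:**
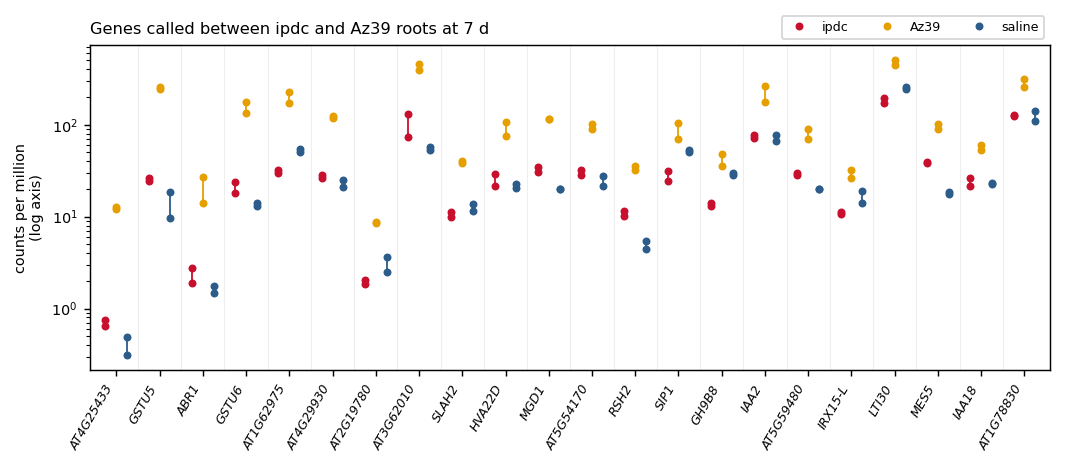
Levels of the 22 genes called between ipdc and Az39 roots at 7 d, in CPM on a log axis, with the 2 libraries of each group joined by a line, for ipdc (red), Az39 (orange) and saline (blue) roots. The Az39 libraries stand above the ipdc libraries in 22 of 22 genes, for example at 265 and 175 CPM against 76.6 and 71.6 CPM for IAA2.

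The difference of ipdc over saline was also set against the same difference at 24 h, as an interaction in 1 model. It differed between the times in 20 genes (0.106%), higher at 7 d in 2 (0.0106%) and lower in 18 (0.0954%). ALMT1 had a log2 fold change of 2.55 at 7 d and stood at 8.14 and 9.99 CPM in ipdc against 12.6 and 15.0 CPM in saline roots at 24 h. PROPEP4 stood at 13.2 and 12.1 CPM in ipdc against 12.4 and 12.6 CPM in saline roots at 24 h, and AT2G16005 at 146 and 196 against 114.5 and 161 CPM. All 3 genes called at 7 d were among the 20. The test between times reuses the ipdc and saline libraries at 7 d, so this overlap is not independent evidence. The ipdc libraries at 24 h held 5.17% and 0.296% seed storage and 0.317% and 1.82% photosynthesis transcripts, against 0.0269% and 0.00465%, and 0.155% and 0.057%, in saline libraries at 24 h, and the part of these in the 20 genes was not tested. The count moved to 0 when any 7 d library or 24 h saline library was left out, to 206 without ipdc replicate 1 at 24 h and to 819 without ipdc replicate 2 at 24 h. Against saline at 24 h, edgeR called 398 genes (2.11%) in ipdc roots.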

How the data were processed

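RNA of whole roots was sequenced as 150 bp single-end reads. The deposited table holds raw counts per gene; per the submitters' processing notes the authors used HISAT2 2.2.1, featureCounts and the TAIR10 build. How strand and multiple matches were handled is not given in the sources used, and paralogs and overlapping genes are uncertain. All 12 count columns were used.

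Tests were run with edgeR 4.0.16 (R 4.3.3): filterByExpr over the 6 groups (minimum count 10), TMM scaling, and quasi-likelihood F tests in 1 model over all 12 libraries (prior count 0.125), which share one estimate of the spread. P-values were adjusted by Benjamini-Hochberg over all 18867 genes, with a threshold of 0.05, and the SE was taken as the fold change over the root of F. The p-values rest on the spread between 2 biological replicates per group, pooled over the 6 groups with 6 residual degrees of freedom. That spread is not the one within the groups compared alone. It includes the ipdc replicates of 24 h, the least alike, with a Spearman correlation of 0.932. The fits were tested on simulated counts. Alternatives used RLE scaling, DESeq2 1.42.0, limma-voom (limma 3.58.1), other count filters, fewer libraries, a replicate block, a test against a 1.5-fold change and, chosen after seeing the data, a likelihood ratio test, a fit that leaves out the ipdc roots of 24 h and a block with crossed marks.

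The members and the 44 lists were chosen with earlier results of these data known. Of 773 list entries, 15 whose symbols did not match the annotation were dropped. Named by rule were all called genes, list members called or most abundant by mean CPM, and a set of 12 marker genes; other named list members were chosen after their values were seen. Gene positions and the upstream sequences are from RefSeq, build TAIR10.1; the counts carry no coordinates, and genes were matched by locus name.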

Additional observations from a re-analysis of the deposited data

Results flagged for a closer look

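In 20 genes the difference of ipdc over saline roots differed between 7 d and 24 h by edgeR's test of that difference itself, and 8 of them are described here. The difference at 7 d minus that at 24 h was 3.16 on the log2 scale for ALMT1, 1.88 for PROPEP4 and -2.44 for AT2G16005, the genes called at 7 d, each with an edgeR adjusted p of 0.0414. It was -2.69 for FLA13, the cell wall protein gene just outside the threshold at 7 d. It was -4.08 for AT5G56100 (edgeR adjusted p = 0.0478), -3.42 for AT4G32340, -2.93 for AT1G73120 and -2.89 for PEX11D, a gene of peroxisome proliferation. PEX11D stood at 9.88 and 11 CPM in ipdc against 13.0 and 10.3 CPM in saline roots at 7 d, and at 29.5 and 44.5 CPM in ipdc against 6.12 and 4.89 CPM in saline roots at 24 h. AT4G32340 stood at 3.29 and 2.19 against 3.15 and 3.05 CPM at 7 d and at 15.1 and 18.6 against 1.54 and 1.97 CPM at 24 h. In these 2 genes the groups were close at 7 d and apart at 24 h, the time at which the ipdc libraries held 5.17% and 0.296% seed storage transcripts, whose part was not tested.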

How the results depend on the processing

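Between ipdc and saline roots edgeR called 3 genes. The count was 379 by DESeq2, 300 by the likelihood ratio test and 5 without a count filter, and all 3 genes were called under each; it was 0 with the groups alone, with the 7 d libraries alone, and against a 1.5-fold change, and lay between 0 and 8 when leaving out 1 library. Between ipdc and Az39 roots the 22 calls became 184 by DESeq2 (30 higher and 154 lower), 142 by the likelihood ratio test (14 higher and 128 lower), 17 with the 7 d libraries alone (2 higher and 15 lower), 21 with the groups alone (1 higher and 20 lower), 35 by limma-voom, 3 against a 1.5-fold change, and 0 to 6 when leaving out 1 library. For the difference between 7 d and 24 h, the 20 calls became 702 by DESeq2, 1 against a 1.5-fold change, 0 with the groups alone, and 0 to 819 when leaving out 1 library. With the replicate mark as a block the 3 counts were 0, 4 and 0. Whether same-marked libraries were grown or handled together is not given. Deviations of same-marked libraries at 7 d correlated at 0.206 between ipdc and saline and at -0.146 between ipdc and Az39. In 11 of 12 JAZ genes replicate 1 exceeded replicate 2 in saline roots, and in 11 of 12 it did so in ipdc roots. Crossing the Az39 marks in the block gave 4 calls between the strains. A replicate effect shared between groups was not tested further. Some log2 fold changes of ipdc over saline near 0 or with unequal replicates changed sign. With the groups alone, the 7 d libraries alone and without both ipdc 24 h libraries, STOP1 was at -0.011, -0.010 and -0.002, and FRK1 at -0.023, -0.022 and -0.015. Leaving out 1 library gave -0.131 to 0.20 for STOP1, -0.054 to 0.075 for FRK1, -0.056 to 0.158 for IAA2, -0.099 to 0.196 for IAA18, -2.33 to 0.245 for IAA5 and -0.566 to 0.081 for CYP71A12. The cause was not tested. RLE scaling and a minimum count of 50 kept each count within 1.5 times. PR1 and PDF1.2 were below the count filter and were not tested.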
